A study of Mus musculus with 4 samples.

Results

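The 10 genes described here encode matrix proteins and regulators of fibroblasts and mesenchyme: Dcn, Lum, Postn, Col1a1, Col1a2, Col3a1, Twist1, Prrx1, Fbn1 and Tagln. They were chosen by their known roles with earlier peak results of the same 4 libraries in view, out of 21887 protein-coding genes, and all 10 had peaks. Each was described by the accessible regions (peaks) in its gene body and the 50 kb on each side. Because the peak lists themselves informed the choice, the covered bp below are a description and carry no test.

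Open chromatin was read with ATAC-seq of single nuclei, an assay that tags DNA where a transposase can reach it, in mouse embryonic stem cells derived from blastocysts. Wild type and Cdc14ab KO cells, the latter lacking the phosphatase genes Cdc14a and Cdc14b, were each sampled at day 0 in LIF-containing ESC medium and at day 5 in N2B27 neural differentiation medium with EGF and FGF2. Each of these 4 groups held 1 library with a target of 5000 nuclei, all labelled clone 3, so a difference between cell lines and an effect of the knockout cannot be told apart. The cells had been kept on feeders, whose type the labels do not give, and were passed over gelatin at low density to take the feeders away before nuclei were isolated. Peaks were called in each library separately by the authors and carry no height, so the read depth is unknown and a missing peak is not shown to be closed chromatin. In a peak list of a whole library, fewer cells with an open locus and less opening per cell cannot be told apart, and the part of any feeder cells left was not tested.

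The lists held between 189571 peaks (wild type, day 5) and 227878 peaks (knockout, day 5), covering 162.5 to 197.3 Mb. All 8 pluripotency genes examined and all 8 neural progenitor genes had a peak within 1 kb of a start in each of the 4 libraries, so presence of a peak did not separate the stages. The wild-type day 5 library stood apart at Y-linked genes that mark male cells: 3 of 4 (Eif2s3y, Uty and Ddx3y, not Kdm5d) had a peak there, their windows summed to 4.28 kb including overlaps, and the other 3 libraries had 0 kb. Peaks elsewhere on the Y chromosome were listed in every library, with 16, 16, 20 and 14 chromosome Y peaks in all (day 0 wild type and knockout, then day 5). Of the comparisons below, those of day 5 between genotypes and of the time course in wild type use that library, and the part of a different cell source in them was not tested.

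Fibrillar collagens (Col1a1, Col1a2 and Col3a1) form the tensile fibres of connective tissue. Decorin and lumican (Dcn and Lum) are small leucine-rich proteoglycans that bind collagen fibrils, periostin (Postn) is a matricellular protein, and fibrillin-1 (Fbn1) builds microfibrils. Twist1 and Prrx1 are transcription factors of embryonic mesenchyme, and transgelin (Tagln) is an actin-binding protein of contractile cells. In neuroepithelium most of these genes are little used, and their loci are opened in mesenchymal lineages.

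Promoter sequences from RefSeq (GRCm38.p6, the coordinates of mm10) were matched for 6 of the 10 genes. The 5 windows below are those that the results turn on: the Col3a1 promoter, where a peak was listed in some libraries only, both Postn starts, the Prrx1 start, where peaks lay just outside, and the Col1a2 promoter, open in all 4 libraries. Each runs 5′ to 3′ over the 250 bases before a transcript start, and capitals mark matches on either strand to 8 motifs. These were the promoter element TATAAA, the element of the factor NF-Y (CCAAT), the E-box bound by helix-loop-helix factors (CANNTG), the motif of the AP-1 factors (TGANTCA), that of the TEAD factors (GGAATG), the SMAD palindrome (GTCTAGAC), the CArG box of serum response factor and the GC box bound by Sp1 (GGGCGG). Adjoining matches run together in capitals. Dcn, Lum, Col1a1 and Tagln had no entry.

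Col3a1, plus strand, chr1:45311288-45311537: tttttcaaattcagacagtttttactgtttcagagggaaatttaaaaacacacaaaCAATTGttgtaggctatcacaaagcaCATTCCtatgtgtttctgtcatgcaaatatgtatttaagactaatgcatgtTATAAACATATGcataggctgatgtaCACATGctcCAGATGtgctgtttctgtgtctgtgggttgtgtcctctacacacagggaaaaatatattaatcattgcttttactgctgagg

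Postn start 1, plus strand, chr3:54359017-54359266: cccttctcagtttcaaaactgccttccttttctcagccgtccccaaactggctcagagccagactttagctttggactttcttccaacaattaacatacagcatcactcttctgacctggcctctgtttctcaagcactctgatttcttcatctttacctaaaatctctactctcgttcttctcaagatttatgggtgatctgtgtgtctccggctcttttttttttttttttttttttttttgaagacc

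Postn start 2, plus strand, chr3:54360857-54361106: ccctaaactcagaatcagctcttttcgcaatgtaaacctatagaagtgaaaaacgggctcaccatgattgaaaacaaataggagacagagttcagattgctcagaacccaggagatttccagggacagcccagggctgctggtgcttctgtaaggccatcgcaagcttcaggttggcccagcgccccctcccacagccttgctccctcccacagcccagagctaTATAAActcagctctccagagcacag

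Prrx1, minus strand, chr1:163313651-163313900: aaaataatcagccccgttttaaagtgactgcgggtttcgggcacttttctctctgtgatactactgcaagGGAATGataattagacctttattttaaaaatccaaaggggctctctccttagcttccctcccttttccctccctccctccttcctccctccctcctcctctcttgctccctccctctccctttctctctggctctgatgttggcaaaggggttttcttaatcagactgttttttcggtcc

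Col1a2, plus strand, chr6:4505368-4505617: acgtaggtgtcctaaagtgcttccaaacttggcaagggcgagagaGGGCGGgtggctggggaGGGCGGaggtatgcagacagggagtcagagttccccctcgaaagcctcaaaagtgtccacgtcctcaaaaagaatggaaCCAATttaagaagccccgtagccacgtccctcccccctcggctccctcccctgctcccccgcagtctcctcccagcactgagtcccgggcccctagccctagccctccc

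The Col3a1 window held TATAAA, a TEAD match and 4 E-boxes, and its 300-base promoter (to 50 bases past the start) contained 0 CpG. TATAAA also stood 26 to 21 bases before Postn start 2, and no motif matched before Postn start 1. Col1a2 had 2 GC boxes and 1 NF-Y element, and Prrx1 had 1 TEAD match. Of 32851 promoter windows of that length in the table, 12.4% held TATAAA, 33.8% the NF-Y element, 66.2% an E-box, 6.75% the AP-1 motif, 12.6% the TEAD motif, 0.167% the SMAD palindrome, 1.47% a CArG box and 32.7% a GC box. None of the 7 windows of the 6 matched genes held the AP-1, SMAD or CArG letters. These matches are letters only and no measure of binding.

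The promoters differed between libraries at few of the genes. Within 1 kb of a start, or of the more covered gene end where no start was matched, 7 of 10 genes had a peak in wild type at day 0 (73.6% of all genes did), 8 of 10 in the knockout at day 0 (74.6%), 10 of 10 in wild type at day 5 (73.4%) and 9 of 10 in the knockout at day 5 (75.2%). These shares lie close to the background at day 0, and with so few genes each steps by a single gene. Within 2 kb the counts were 9, 9, 10 and 10 of 10, with Lum the gene without a peak at day 0. The genotypes were thus level at day 0 in that window. Within 500 bp the counts were 6, 8, 9 and 9, and over the start base itself 5, 6, 7 and 6. The share of all genes was computed for the 1 kb window only.

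**Figure D1:**
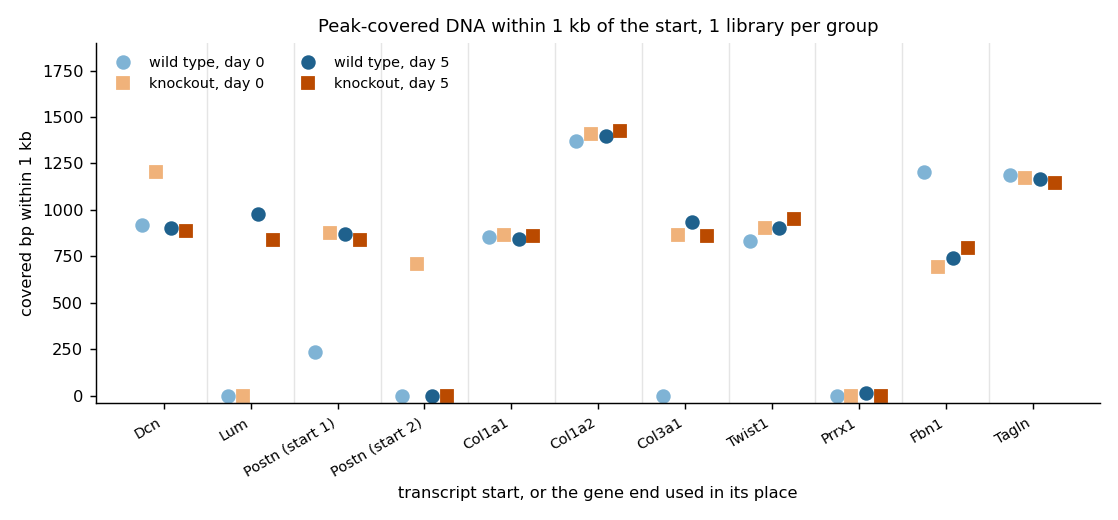
Covered bp (vertical axis) within 1 kb of each start or gene end (horizontal axis), 1 point per library. Points at 0 stand for no peak. They are both day 0 libraries at Lum, wild type at day 0 at Col3a1 and every library but the day 0 knockout at Postn start 2. Prrx1 also stands at 0 in every library but wild type at day 5, where 12 bp were covered.

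At the Col3a1 start, whose sequence is given above, wild type at day 0 had no peak, its nearest one beginning at 45312585, just past the 1 kb window. A peak covered 864 bp of the window in the knockout at day 0, 937 bp in wild type at day 5 and 858 bp in the knockout at day 5. Its limits were 45311078 to 45311941, 45311021 to 45311957 and 45311106 to 45311963 in that order, each across the start at 45311538. The region is thus absent from 1 library and nearly the same in the other 3.

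At Lum the low-coordinate gene end (97565501 on chromosome 10) had 0 bp in both day 0 libraries, 977 bp in wild type at day 5 and 835 bp in the knockout at day 5. Both genotypes therefore had this peak at day 5 only. The neighbouring Dcn end (97479500) held a peak in all 4 libraries, with 916, 1203, 901 and 884 bp covered (day 0 wild type, day 0 knockout, day 5 wild type, day 5 knockout, the order of every set of 4 values below).

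Around Postn start 1 (54359267 on chromosome 3), peaks covered 236, 875, 870 and 838 bp, all of them before the start and none across it. The wild-type day 0 peak was the short one, at 236 bp. A peak across start 2 (54361107), over the TATAAA printed above, was listed in the day 0 knockout alone, from 54360677 to 54361387. At Prrx1 too a single library, wild type at day 5, had a peak in the window, which reached 12 bp into it. That window lies around the matched start at 163313650, while the gene body reaches to 163315145. Beyond that end, a region at 163315782 to 163316600 was listed in every library but wild type at day 5. Only the matched start was counted, so the Prrx1 pattern depends on the start used.

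The other promoters, or the gene ends used in their place, were covered in every library. Col1a2 had 1369, 1411, 1397 and 1425 bp and Twist1 834, 903, 900 and 950 bp. At Fbn1, whose values were 1206, 694, 740 and 796 bp, a peak lay across the start in both wild-type libraries and beside it in both knockout libraries. For Tagln the high-coordinate end (45936058 on chromosome 9) had 1190, 1174, 1165 and 1146 bp and the low-coordinate end 0. Col1a1 had a peak near each of its ends in every library, with 390 to 511 bp at the low-coordinate end (94936224 on chromosome 11) and 844 to 865 bp at the other. No peak lay across either end in any library. The high-coordinate end was the one counted, and no matched start shows which end is the promoter.

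CpG content of the promoter, which was not used to choose the genes, is set beside these values. Among protein-coding genes in the table, a peak was present near the first listed start in 28.8 to 32.1% (range over the 4 libraries) of the tertile with the lowest observed-to-expected CpG ratio, in 87.5 to 89.5% of the middle tertile and in 98.6 to 99.1% of the highest tertile. Col3a1, with a ratio of 0, lay in the lowest tertile. Twist1 (0.83) lay in the highest tertile, and Postn (0.36), Prrx1 (0.36), Col1a2 (0.47) and Fbn1 (0.58) in the middle tertile. Prrx1 was thus the middle-tertile gene with no more than 12 bp covered near its matched start in any library.

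Across whole loci the 10 genes differed widely in how much DNA the peaks covered. As a share of the window, Col1a1 was the most covered (18.2 to 22.2% over the libraries), and Lum (1.21 to 4.19%) and Dcn (1.60 to 4.54%) were among the least. The median gene had 12.0, 13.3, 10.1 and 12.8%. Postn spanned 2.82 to 7.79%, Twist1 4.93 to 7.85%, Prrx1 4.08 to 7.92%, Col3a1 5.08 to 9.25%, Fbn1 5.85 to 9.31%, Col1a2 9.11 to 12.3% and Tagln 6.56 to 16.8%. The Dcn and Lum windows share 52.7 kb, so these genes are not independent of each other, and Col3a1 shares its window with the collagen gene Col5a2.

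**Figure D2:**
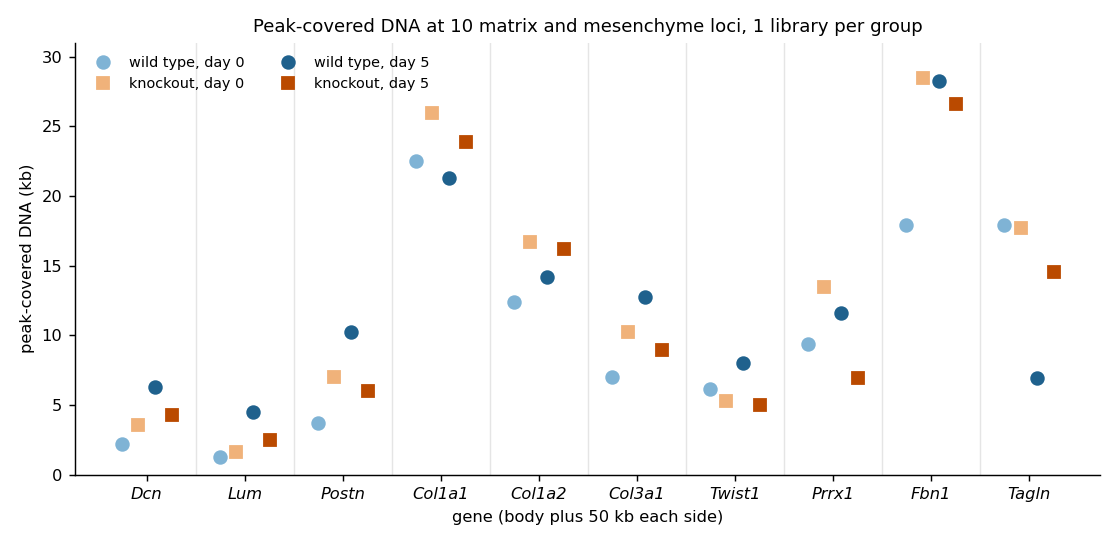
Peak-covered DNA in kb (vertical axis) in the body of each gene plus 50 kb on each side (horizontal axis), 1 point per library. Wild type at day 5 is the highest point at Dcn, Lum, Postn, Col3a1 and Twist1 and the lowest at Col1a1 (21.3 kb) and Tagln (6.98 kb).

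The genotypes were first compared in LIF medium, before differentiation. At day 0, 8 of 10 loci covered more bp in the knockout than in wild type relative to the median gene, with a median of 0.35 (log2, all genes 0). Postn stood highest: its window had 3.72 kb covered in the wild-type library against 6.99 kb in the knockout one, a ratio of 0.72 after centring. The Fbn1 ratio was 0.55 (17.9 and 28.5 kb), that of Dcn 0.47 (2.22 and 3.55 kb) and that of Col3a1 0.41 (7.01 and 10.3 kb). The loci below the median gene were Twist1 (−0.30, 6.12 and 5.30 kb) and Tagln (−0.12, 17.9 and 17.7 kb).

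Ratios here and below are log2 of covered bp after adding 500 bp to each library, centred on the median of 20806 genes that had coverage in some library, which was 0.11 in this comparison, 0.31 between genotypes at day 5, −0.22 for wild type over time and −0.03 for the knockout over time. A locus was called past 2-fold, and 0 of 10 were called in either direction at day 0 (background 1.82% higher and 1.17% lower). With 1 library per group there is no replicate check on any of these values. Prrx1 (0.39), Col1a2 (0.31), Lum (0.16) and Col1a1 (0.09) made up the other loci above the median gene.

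At day 5 the order turned: 9 of 10 loci covered less in the knockout than in wild type relative to the median gene, with a median of −0.81, and 7 of 10 did so with no centring, where Col1a1, Col1a2 and Tagln covered more. For Postn 10.3 kb were covered in wild type against 6.01 kb in the knockout (−1.03), Lum 4.49 and 2.53 kb (−1.03), and Prrx1 11.6 and 6.93 kb (−1.01). These 3 of 10 loci were called lower (background 1.43%), and 0 were called higher (background 3.99%). Tagln was the exception, with 6.98 kb in wild type against 14.6 kb in the knockout (0.70).

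The called loci lay just past the limit, and Twist1 (−0.93, 8.02 and 5.04 kb) just short of it. All 3 calls were lost with a pseudocount of 2000 bp, with numbers of peaks in place of bp, with 10 kb in place of 50 kb of flank or with no centring, where Tagln was called higher instead. They were also lost over gene bodies alone (Lum −0.72, Postn −0.88, Prrx1 −0.92), where Dcn (−1.06) and Col3a1 (−1.03) were called lower. The share of all genes called was computed for the reported setting only, so calls in other settings have no background. The remaining ratios were −0.82 for Dcn, −0.79 for Col3a1, −0.39 for Fbn1, −0.14 for Col1a1 and −0.12 for Col1a2. The wild-type library used here is that with peaks at Eif2s3y, Uty and Ddx3y, and the comparison cannot be made without it.

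**Figure D3:**
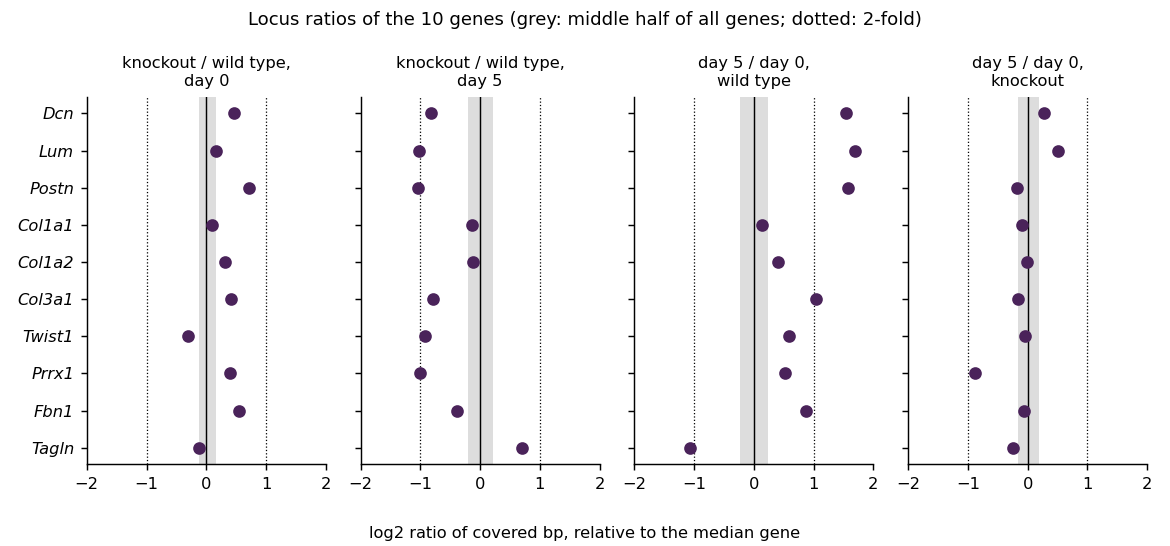
Centred log2 ratio of covered bp (horizontal axis) for each gene (vertical axis) in the 4 comparisons. The grey band spans the middle 50% of all genes and the dotted lines mark 2-fold. Lum, Postn and Prrx1 lie past the lower line at day 5, and Dcn, Lum, Postn and Col3a1 past the upper line in the wild-type time course.

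In the wild-type time course, 9 of 10 loci covered more at day 5 than at day 0 relative to the median gene, with a median of 0.72, and 8 of 10 did so with no centring. Lum had the highest ratio (1.69, from 1.30 to 4.49 kb), followed by Postn (1.57, from 3.72 to 10.3 kb), Dcn (1.55, from 2.22 to 6.30 kb) and Col3a1 (1.04, from 7.01 to 12.8 kb). These 4 loci were called higher (background 4.09%), and Tagln was called lower (−1.08, from 17.9 to 6.98 kb, background 2.73%). The calls of Dcn and Lum are not separate. The stretch their windows share held 1.30 kb in wild type at day 0 and 3.57 kb at day 5. The Lum window held 2 peaks in wild type at day 0 and 5 at day 5. Fbn1 (0.86), Twist1 (0.59), Prrx1 (0.52), Col1a2 (0.41) and Col1a1 (0.14) lay above the median gene without being called. The day 5 library is again that with peaks at Eif2s3y, Uty and Ddx3y. Counted over gene bodies alone, Lum (1.5), Postn (2.29) and Fbn1 (1.28) were called higher and 0 loci lower, while Dcn (0.92), Col3a1 (0.21) and Tagln (−0.01) were no longer called.

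In the knockout the same loci had smaller ratios over time, save Prrx1. Relative to the median gene, 8 of 10 covered less at day 5 than at day 0, with a median of −0.08, and 0 of 10 were called in either direction (background 3.3% higher and 0.711% lower). Prrx1 had the lowest ratio (−0.88, from 13.5 to 6.93 kb). Lum (0.51, from 1.67 to 2.53 kb) and Dcn (0.26, from 3.55 to 4.27 kb) were the loci above the median gene. Over gene bodies alone, Lum was called higher (1.01) and Col3a1 and Prrx1 lower (−1.24 each), again with no share of all genes computed. The Lum body had 446 bp covered in the knockout at day 0 and 1405 bp at day 5. This comparison and that of the genotypes at day 0 do not use the library with peaks at Eif2s3y, Uty and Ddx3y.

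The time course and genotype comparisons share libraries, so their values are given side by side and are not independent of each other. For Postn the knockout stood above wild type at day 0 (0.72) and below it at day 5 (−1.03), while wild type changed by 1.57 and the knockout by −0.17 over time. For Prrx1 the values were 0.39, −1.01, 0.52 and −0.88 in that order. For Col1a1 all 4 were small, between −0.14 and 0.14. The difference between the genotype comparisons of the 2 days could not be tested with 1 library in each group.

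Tagln differed in sign from the other loci between genotypes at day 5 and in wild type over time. Its window is shared with Rnf214, Pcsk7, Sidt2 and Pafah1b2. Outside the bodies of those genes and 1 kb around them, 1335, 3675, 963 and 1983 bp were covered, a small part of the window total. With other genes left out in this way, the Tagln ratios became 1.08 (genotypes at day 0), 0.45 (genotypes at day 5), −0.12 (wild type over time) and −0.74 (knockout over time), so neither its direction at day 0 nor its call over time held. For Postn, which shares its window with Trpc4, the corresponding values were 0.64, −0.77, 1.63 and 0.22. This way of counting was chosen after the values were seen.

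**Figure D4:**
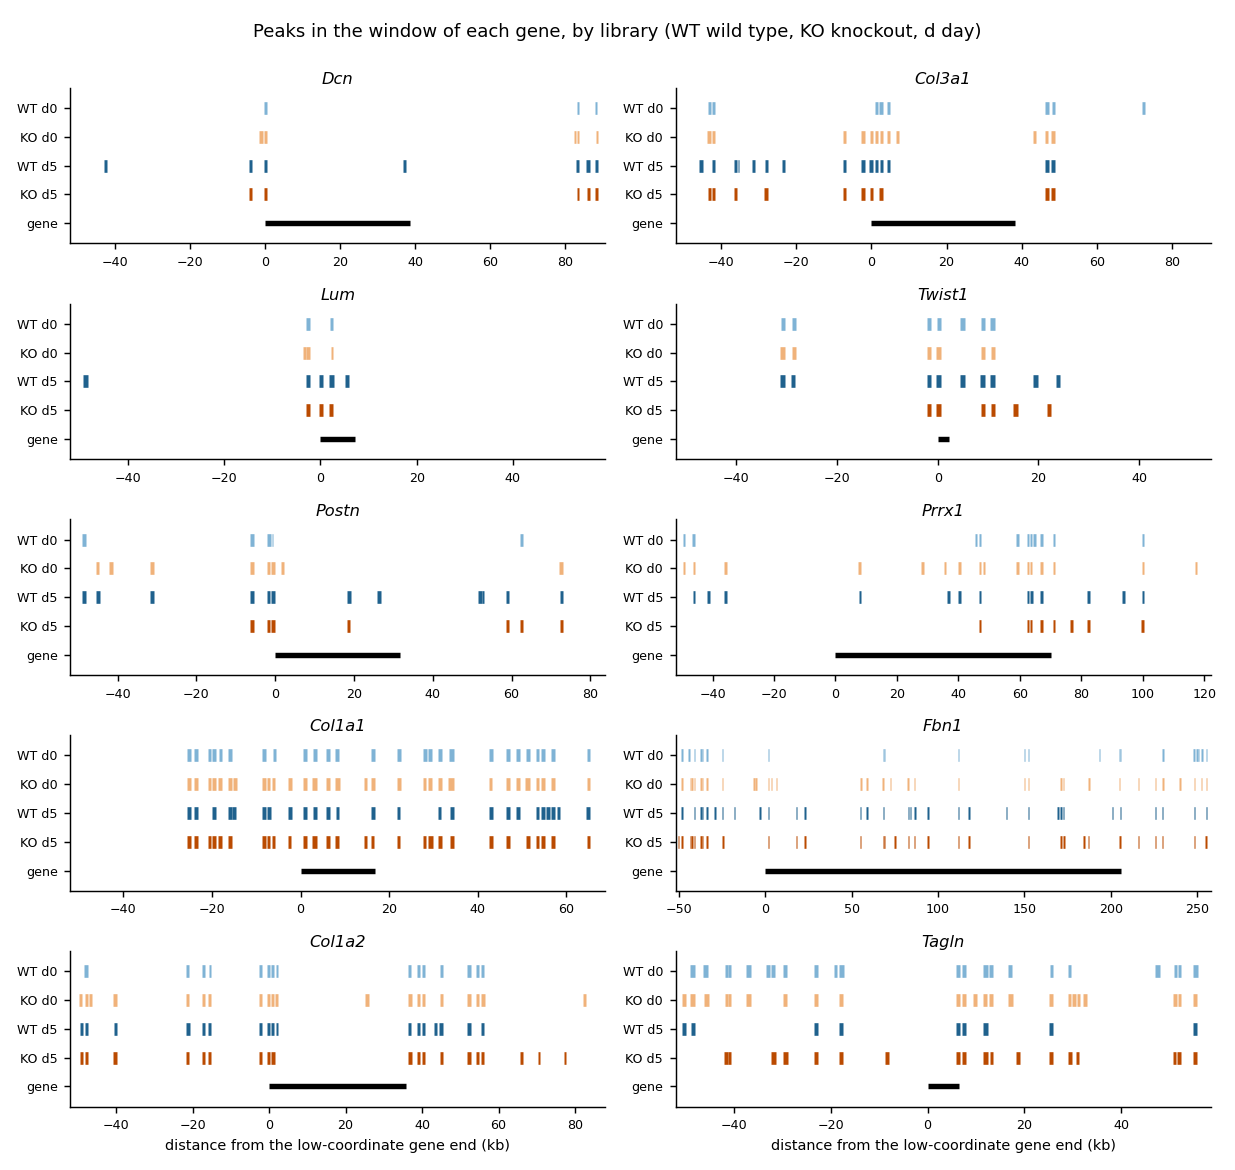
Peaks (coloured blocks) of each library along the window of each gene, by distance in kb from the low-coordinate end of the gene (horizontal axis), with the gene body in black. Peaks are sparse at Dcn, Lum and Postn, with added day 5 wild-type blocks at Postn and Col3a1, and dense at Col1a1.

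Peaks of the 4 lists were joined where they overlapped, which gave 212 regions in these windows. A peak was present in all 4 libraries in 72 of them (34.0%), against 36.0% of the 266329 regions in the windows of all protein-coding genes. The genes were chosen with these peak lists in view and neighbouring regions share their libraries, so the shares are a description and no interval or test is set on them. Near a start, 10 of 14 regions were in all 4 libraries (71.4%; all genes 77.2%), against 13 of 54 in gene bodies (24.1%; all genes 31.2%) and 51 of 148 in flanks (34.5%; all genes 41.6%), counting shared regions once for each gene. A Prrx1 region is among the 10, although only its day 5 wild-type peak reached the window of the start, by 12 bp. The order of places was thus that of all genes, and where no start was matched the more covered gene end had been taken.

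Regions held by wild type at day 5 alone numbered 25 (11.8%; all genes 7.81%), and those held by the day 5 knockout alone 10 (4.72%; all genes 9.39%). The day 0 knockout alone held 20 (9.43%; all genes 7.92%) and wild type at day 0 alone 10 (4.72%; all genes 4.95%). Regions in every library but wild type at day 0 numbered 14 (6.60%; all genes 3.01%), and those in the day 0 knockout and day 5 wild type only numbered 8 (3.77%; all genes 1.41%). No region was held by all libraries but the day 0 knockout (0 of 212; all genes 1.76%). Because neighbouring regions share their libraries, no limit is set on this share and no depletion is read from it.

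**Figure D5:**
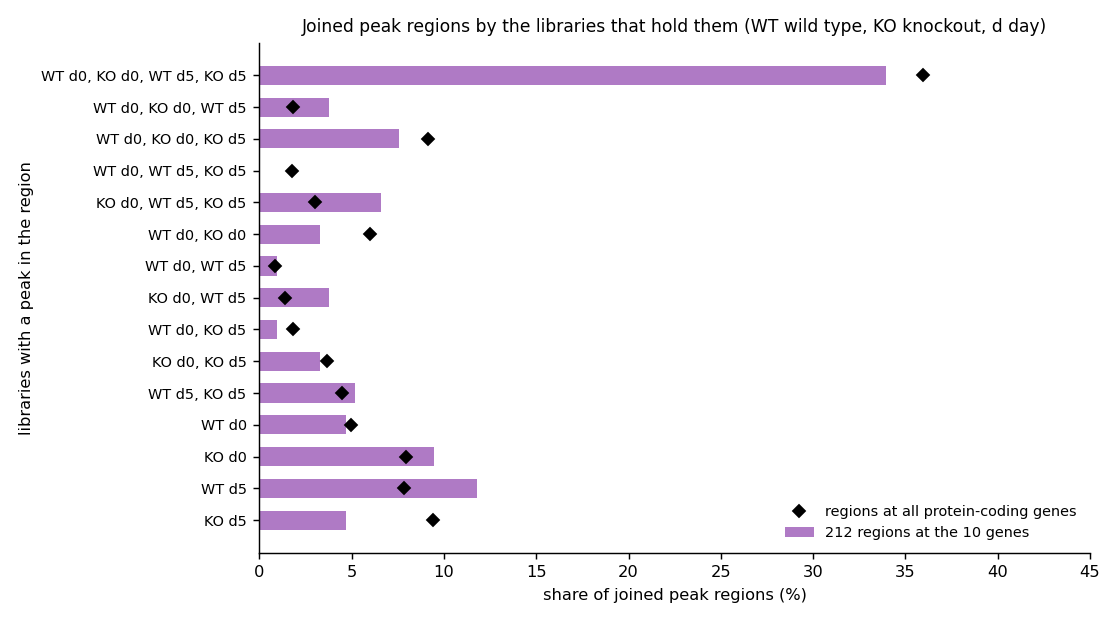
Share of joined peak regions (horizontal axis, percent) by the libraries that hold a peak in them (vertical axis). Bars give the 212 regions at the 10 genes and diamonds the regions at all protein-coding genes. For the day 5 knockout alone the bar stands at 4.72% and the diamond at 9.39%, and for all libraries but wild type at day 0 at 6.60% and 3.01%.

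At Postn, 15 regions were joined, 3 of them in all 4 libraries. The region at 54377384 to 54378444, inside the gene and 18.6 kb after start 1, was listed at day 5 in both genotypes and not at day 0, and those at 54385183 to 54386063, 54410841 to 54411653 and 54411781 to 54412361 in wild type at day 5 alone. Regions at 54313811 to 54314717 and 54327487 to 54328579, before the gene, were shared by the day 0 knockout and day 5 wild type only. Within the gene body itself, peaks covered 0, 711, 1863 and 887 bp.

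At Col3a1, 19 regions were joined. Besides the promoter, the regions at 45304015 to 45304875 and 45308796 to 45309842, centred at −7.09 and −2.22 kb from the start, were listed in every library but wild type at day 0, so 3 neighbouring regions had that pattern. A further 4 regions were listed in wild type at day 5 alone, the nearest of them centred at −23.4 kb from the start. Gene body coverage was 2579, 3810, 2941 and 1326 bp, lowest in the day 5 knockout.

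Fbn1, the longest of the genes at 205.9 kb, had 51 regions, 14 of them in all 4 libraries. Its body was covered over 6.73, 13.9, 16.5 and 15.4 kb, so wild type at day 0 stood apart from the other 3 libraries. Prrx1 had 23 regions, and its body coverage was 5.91, 8.45, 6.11 and 3.29 kb, lowest in the day 5 knockout. Although its matched start was nearly uncovered, the region from 163311644 to 163312661 was in all 4 libraries. It lay inside the gene and mostly more than 1 kb from that start.

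Twist1 had 11 regions in a window of 102.2 kb, 4 in all libraries, and 2 regions in each day 5 library alone. Dcn had 8 regions and Lum 5, with the region from 97516205 to 97517103, inside Dcn near its high-coordinate end, listed in wild type at day 5 alone. Col1a1 was the most constant: 19 of its 32 regions were in all 4 libraries. Col1a2 had 13 of 24 in all 4, and Tagln 7 of 28.

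Further genes of matrix, mesenchyme and contraction were set beside the 10. Of 23 other matrix genes, 20 lay above the median gene in the knockout at day 0 (median 0.26), and 3 were called higher (background 1.82%). These were Thbs2 (1.83), which encodes thrombospondin 2, the proteoglycan gene Aspn (1.24) and the collagen gene Col6a3 (1.05). At day 5, 7 of 23 lay above the median gene (median −0.11, range −0.60 at Tnc to 0.18 at Sparc), with 0 called. Over time in wild type, 19 of 23 lay above it (median 0.30). Thbs2 (2.08), Col6a3 (1.22) and Aspn (1.11) were called higher (background 4.09%). Both sets of calls divide by wild type at day 0, the least covered library at each of these genes, so they are not independent. In the knockout over time, 9 of 23 lay above the median gene (median −0.06), with 0 called. The lowest of the list at day 0 was Timp1 (−0.11).

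Among 20 mesenchymal regulators and receptors, 16 lay above the median gene in the knockout at day 0 (median 0.16, from −0.25 at Meox1 to 0.52 at Klf4, which also acts in naive pluripotency) and 5 at day 5 (median −0.10, up to 0.17 at Pdgfrb). Cdh11, a mesenchymal cadherin, was called lower in the knockout at day 5 (−1.06, from 16328 bp in wild type to 9504 bp, background 1.43%). Over time in wild type, Cdh11 (1.53) and the repressor gene Zeb1 (1.12) were called higher (background 4.09%). Both Cdh11 calls use the day 5 wild-type library. The time course medians of this list were 0.43 in wild type and 0.07 in the knockout. Of 14 contractile genes, 9 lay above the median gene at day 0 (median 0.14, from −0.41 at Srf to 0.57 at Actg2) and 6 at day 5 (median −0.03, from −0.48 at Myocd to 0.30 at Myh11), with time course medians of 0.08 and 0.05 and 0 called in any comparison. After centring, the matrix list thus had medians of the same signs as the 10 genes in all 4 comparisons. The mesenchymal and contractile lists had them in all but the knockout time course. These signs are not particular to matrix genes. The 5 endothelial genes had them in all 4 too (0.02 and −0.17 between genotypes, 0.17 and −0.06 over time). The matrix list also holds Col5a2, which shares the Col3a1 window. With no centring the day 5 medians between genotypes turned to 0.19 for the matrix list (16 of 23 above 0), 0.20 for the mesenchymal list (14 of 20) and 0.27 for the contractile list (13 of 14), and the wild-type time course median of the contractile list to −0.14.

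For comparison, the 8 pluripotency genes had medians of −0.02 and 0.04 between genotypes at day 0 and day 5, and of −0.24 and −0.03 over time in wild type and knockout. The 8 neural progenitor genes had −0.03 and −0.37 between genotypes, and 0.27 and 0.16 over time, with 8 of 8 above the median gene in wild type. With no centring that wild-type median over time was 0.04, with 5 of 8 above 0. The day 5 genotype median of the neural genes was −0.06 with no centring, with 3 of 8 above 0, and that of the pluripotency genes 0.34.

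Among 17875 genes at least 1 Mb away with at least 5000 bp covered on average, those whose centred log2 coverage over the 4 libraries lay nearest to that of Postn were Eif3j2 (Euclidean distance 0.11 log2 units), Gm33153 (0.12), Cav1 (0.14), Cd44 (0.15) and Socs6 (0.17). Cav1 covered 6.36, 11.9, 15.5 and 9.32 kb and Cd44 ranged from 9.39 to 23.0 kb. In all of the named genes, wild type at day 5 was the highest and wild type at day 0 the lowest, as at Postn. The genes were picked by nearness to Postn over these same libraries, so this order follows from the choice. This likeness rests on 4 libraries and is a description.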

How the data were processed

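Accessibility was measured by single-nucleus ATAC-seq in 4 libraries of mouse embryonic stem cells, 1 per group. The deposited files give only positions for each peak. Per the file headers, the authors called peaks for each library with cellranger-arc 2.0.0 on mm10. Scanpy 1.7.2 is also named, per the submitters' processing notes. Read depth and doublet handling are not given in the sources used here, and the RNA side of the assay was not used here.

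Gene bodies of 21887 protein-coding genes came from RefSeq on GRCm38.p6, and transcript starts with strand for 17492 of them from the RefSeq promoter table. For the rest, the gene end with more covered bp within 1 kb was used, which can be the 3′ end. Covered bp, peak overlaps of at least 1 bp, centred log2 ratios (pseudocount 500 bp) and joined regions were computed. Python 3.11.15 was used with numpy 2.4.6 and pandas 2.3.3. Covered bp and ratios were first tested on the wild-type day 0 list with peaks removed from the windows of some genes. Promoter peaks and joined regions were not part of that test. The genes, lists, windows and the rule for named genes were chosen with earlier results of these data known. From the matrix, mesenchymal and contractile lists, the highest and lowest gene between genotypes at each day are named (at least 2000 bp on average). Each called gene of any list is named too. For the cell type marker lists the highest and lowest genes are not otherwise given. Regions named within loci were chosen after their values were seen. Alternatives are given in the closing section.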

Additional observations from a re-analysis of the deposited data

Results flagged for a closer look

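For 9 of the 10 genes the genotype comparison had opposite signs at day 0 and day 5. The day 5 ratio minus the day 0 ratio (log2, knockout against wild type) was −1.75 for Postn, −1.40 for Prrx1, −1.29 for Dcn, −1.21 for Col3a1, −1.19 for Lum, −0.94 for Fbn1, −0.43 for Col1a2, −0.24 for Col1a1 and 0.82 for Tagln. Each sign rests on 1 library per group, and the difference was not tested. Twist1 lay below the median gene on both days. With no centring, Col1a1 (0.20 at day 0, 0.16 at day 5) and Col1a2 (0.42 and 0.19) were above 0 on both days. With other genes left out of the window Tagln was so too (1.08 and 0.45). Over gene bodies alone, Dcn (−0.03 and −1.06) and Lum (−0.18 and −0.72) lay below the median gene on both days. The changes of sign at these genes thus depend on the setting.

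Outside these genes, the windows of 4 Y-linked genes covered 4.28 kb in wild type at day 5, including overlaps between neighbouring windows, and 0 kb in each of the other libraries. Its part in the day 5 values was not tested.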

How the results depend on the processing

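The median over the 10 genes kept its sign in all 11 alternatives of each comparison: 0.12 to 0.50 between genotypes at day 0, −0.84 to −0.50 at day 5, 0.15 to 0.93 for wild type over time and −0.16 to −0.02 for the knockout over time. Counts of called loci changed more, and the share of all genes called was computed for the reported setting only. Between genotypes at day 0, 1 locus in place of 0 was called with 10 kb of flank (Fbn1), with gene bodies alone (Postn), with each list cut to its 189571 widest peaks (Lum, lower) and with other genes left out of the window (Tagln), a setting chosen after seeing the data. At day 5, 0 loci in place of 3 were called with 10 kb of flank, a pseudocount of 2000 bp or numbers of peaks, and 1 (Tagln, higher) with no centring. For wild type over time, 3 in place of 5 were called with gene bodies alone and with a pseudocount of 2000 bp. For the knockout over time, 3 in place of 0 were called with gene bodies alone and 2 with the widest peaks. With windows of 2 kb, the genes with a promoter peak numbered 9 in place of 7 and 9 in place of 8 in day 0 wild type and knockout, and 10 in place of 9 in the day 5 knockout, and at least 250 bp covered left 6 in wild type at day 0 and 9 in wild type at day 5. With the widest peaks, 27.4% of 201 regions, in place of 34.0% of 212, were in all 4 libraries. Of 110 values per comparison for single genes, 2 between genotypes at day 0, 2 at day 5, 8 in the wild-type and 3 in the knockout time course moved by over 1.5-fold, and 0 values called in the reported setting changed sign. At day 0, Lum (0.16 to −1.31, widest peaks) and Tagln (−0.12 to 1.08, other genes left out) became called with the opposite sign. No paired analysis was possible because each group holds 1 library.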

Other observations

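Loci of other cell types were also measured. Of 6 endoderm genes, 4 lay above the median gene in the knockout at day 0 (median 0.20) and 3 at day 5 (0.06), and 3, 5, 4 and 6 of them had a promoter peak in the order of libraries used above. Of 5 endothelial genes, medians between genotypes were 0.02 at day 0 and −0.17 at day 5. Of 5 blood and macrophage genes, the median was 0.27 at day 0 and 0.02 at day 5. For wild type over time the medians were 0.25 for endoderm (6 of 6 above the median gene), 0.17 for endothelial (3 of 5) and 0.60 for blood and macrophage genes (4 of 5), the last near the 0.72 of the 10 matrix and mesenchyme genes. With no centring they were 0.03 (3 of 6 above 0), −0.05 (2 of 5) and 0.38 (4 of 5) in that order. Lyz2, the lysozyme gene of myeloid cells and one of the blood and macrophage list, was called lower in the knockout at day 0 (−1.18, 9487 bp against 4261 bp, background 1.17%). It was called higher over time in the knockout (1.36, to 11498 bp, background 3.3%), and both calls use the day 0 knockout library. No peak lay within 1 kb of the Lyz2 start in any library.

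Of the 23 other matrix genes, 18, 22, 21 and 21 had a promoter peak in the 4 libraries, and 4 were uncovered in wild type at day 0 and covered in the knockout at day 0. Bgn had 0 bp and 930 bp, Ogn 0 and 1306 bp, Fmod 0 and 1435 bp and Col6a3 0 and 961 bp. In wild type at day 5 the values were 865 bp for Bgn, 992 bp for Ogn, 919 bp for Fmod and 0 bp for Col6a3, and in the knockout at day 5 they were 917, 0, 1333 and 956 bp in that order. These genes were picked after their values were seen.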
